A study of Mus musculus with 8 samples.

Results

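The 10 genes described here encode the pore-forming subunits of the AMPA-type glutamate receptor (Gria1, Gria2, Gria3 and Gria4) and proteins that bind these subunits (the TARPs Cacng2 and Cacng4, the cornichons Cnih1, Cnih2 and Cnih3, and Shisa9). They were picked by symbol from the 54854 genes of the count table, with the comparison of anti-CD115 and isotype control in view. Their levels in that comparison are therefore given as a description, with no p-value for a member. The number of members called in the fit over all genes is printed beside the share of all genes called, and nothing is read from it. The comparisons between sexes and the sex by treatment term were not used in the choice and were tested.

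The mRNA was sequenced from the whole pituitary of 8 mice of the C57BL/6N strain at 5 weeks of age. In the anti-CD115 group (n = 4), the dam had received 3 mg of the AFS98 antibody against CD115, the CSF1 receptor encoded by Csf1r, at embryonic day 6.5. After birth, the offspring were given a dose of 100 µg on day 2, a dose of 150 µg on day 14 and a last dose of 200 µg when 4 weeks old. The isotype control group (n = 4) had the same schedule with a rat IgG2a antibody. In each group replicate 1 was female and replicates 2 to 4 were male, and the labels name no transgene or mutant allele in either group. Dams and litters were not given, so that litter and treatment cannot be told apart, and p-values measure the spread between these mice. A whole gland holds both lobes and many cell types, so fewer cells of a type and less RNA per cell cannot be told apart for any value below.

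AMPA receptors are cation channels built as tetramers of the Gria subunits, and they carry most fast excitatory transmission in the brain. GluA2, the product of Gria2, lowers calcium entry when the codon at its glutamine/arginine site in the pore has been edited in the RNA by ADARB1. TARPs, cornichons and Shisa9 (also called CKAMP44) bind the tetramer and change its export to the surface and its gating. Cornichons are also cargo receptors that carry proteins from the endoplasmic reticulum, a task shared by all cells. Glutamate receptors have been described in endocrine cells of the pituitary as well as in neurons.

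The stretch around the glutamine/arginine site is printed because it is where the pore subunits differ in function and because it shows how alike their transcripts are. Each line gives 42 bases of the sense strand, 5′ to 3′, from a GENCODE M21 transcript (build GRCm38), with the codon of the site in capitals. The stretches lie in exon 11 of Gria1 (chr11:57243076-57243117, plus strand), exon 11 of Gria2 (chr3:80706890-80706931, minus strand), exon 11 of Gria3 (chrX:41610247-41610288, plus strand) and exon 12 of Gria4 (chr9:4464116-4464157, minus strand). Exons are numbered as in the GENCODE M21 transcript of each gene with the longest open reading frame.
Gria1: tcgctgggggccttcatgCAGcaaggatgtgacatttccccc
Gria2: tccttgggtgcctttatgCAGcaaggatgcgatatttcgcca
Gria3: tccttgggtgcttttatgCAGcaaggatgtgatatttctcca
Gria4: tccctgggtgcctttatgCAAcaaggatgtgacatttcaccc
All of them hold a glutamine codon in the genome, CAG in Gria1, Gria2 and Gria3 and CAA in Gria4. Gria2 and Gria3 differed at 3 of the 42 bases, whereas Gria1 differed from Gria2 and from Gria3 at 8 bases each. Counts per gene hold no record of editing at this site. Over the whole transcripts, the longest run of identical bases shared by a pair of Gria genes was 35 to 57 bases, and their coding sequences were 70.4% to 73.1% identical. Reads shared between the subunits can thus come from short stretches, and how such reads were counted is not given in the sources used here.

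Libraries held between 23289819 and 36218096 counted reads. The targeted receptor followed the labels: Csf1r lay between 26.9 and 40.3 CPM (counts scaled to library size with TMM factors) in isotype controls and between 1.43 and 6.80 CPM after anti-CD115, and 11 of 12 macrophage markers fell (edgeR quasi-likelihood test, Benjamini-Hochberg adjusted p below 0.05). Pituitary markers were present in every library. Neuron markers were also present at a low level, with 11 of them summing to 124 to 175 CPM in controls and 136 to 235 CPM in treated glands. Which cells these reads came from was not tested.

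A treated library stood apart in a way that bears on these genes. Anti-CD115 replicate 1, the treated female, had 38 genes with at least 40 counts that were more than 4-fold above every other library, against 0 to 20 such genes in the other libraries. A list of 10 genes of forebrain excitatory neurons, set up after this library had been seen, summed to 434 CPM in it and to 37.6 to 52.5 CPM in the others, and 9 of the 10 were highest there. Neurod2 and Tbr1, transcription factors of cortical excitatory neurons, had 78 and 71 counts in it and 0 to 2 counts elsewhere. Camk2a, a kinase of the excitatory synapse, reached 220 CPM against 17.3 to 27.8 CPM. Since AMPA receptor genes are abundant in forebrain, results are given with and without this library; the part of the forebrain genes in them was not tested. In anti-CD115 replicate 3, oligodendrocyte markers summed to 251 CPM against 65.7 to 100 CPM elsewhere.

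**Figure D1:**
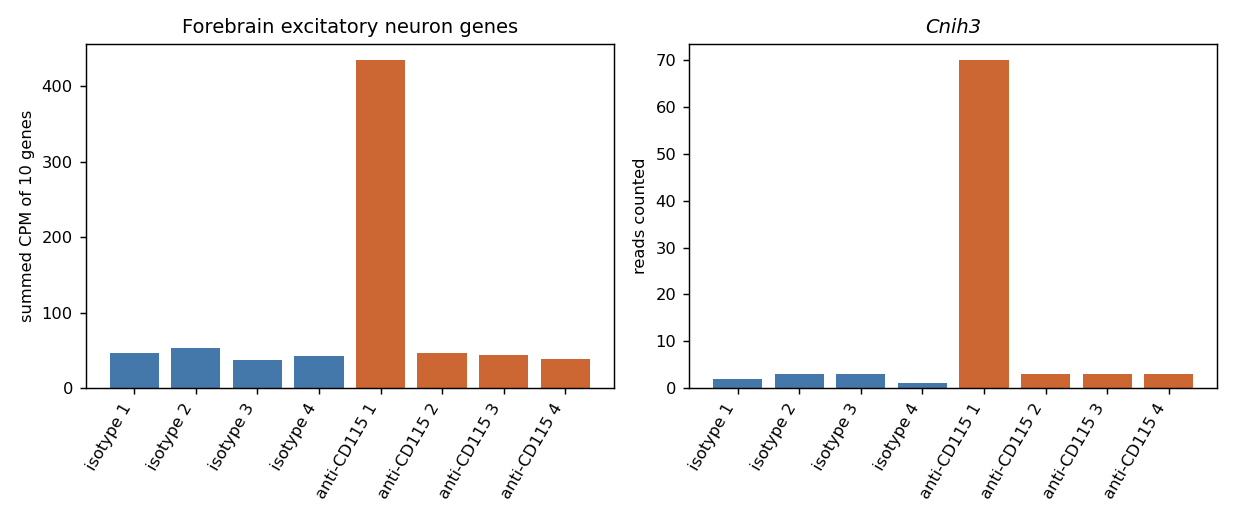
Summed CPM of 10 forebrain excitatory neuron genes (left) and reads counted for Cnih3 (right), with 1 bar per library (blue, isotype control; orange, anti-CD115). Anti-CD115 replicate 1 reaches 434 CPM and 70 reads, while the other 7 libraries lie at 37.6 to 52.5 CPM and 1 to 3 reads.

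Among the members, Cnih1 was the most abundant and Cnih3 was close to absent outside 1 library. Mean FPKM (fragments per kilobase of gene, scaled to library size, as deposited) over the 8 libraries was 45.0 ± 3.02 (SD) for Cnih1 and 16.7 ± 4.02 for Cnih2. Below these cornichons came Gria1 at 4.80 ± 1.32, Gria4 at 3.20 ± 0.564 and Cacng4 at 3.12 ± 0.409 FPKM. Shisa9 at 2.69 ± 0.657, Gria2 at 1.67 ± 0.349, Gria3 at 1.10 ± 0.245 and Cacng2 at 0.847 ± 0.117 FPKM followed. Cnih1 and Cnih2 stood clear of each other and of all other members in every library. Between Gria1 and Cacng2, the range of each member over the libraries overlapped that of its neighbour in the order. Within every library, though, Gria1 lay above Gria4, Shisa9 above Gria2 and Gria2 above Gria3, on the deposited lengths. Gria4, Cacng4 and Shisa9 changed order between libraries and were not separated beyond their spread. Gria3 and Cacng2 changed order as well. The order depends on the gene length used. As an alternative, the length of the transcript with the longest open reading frame took the place of the deposited length. On it, 7 of the 10 members kept their place, and Shisa9 moved ahead of Gria4 and Cacng4 with 4.13 FPKM against 3.71 and 3.18.

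**Figure D2:**
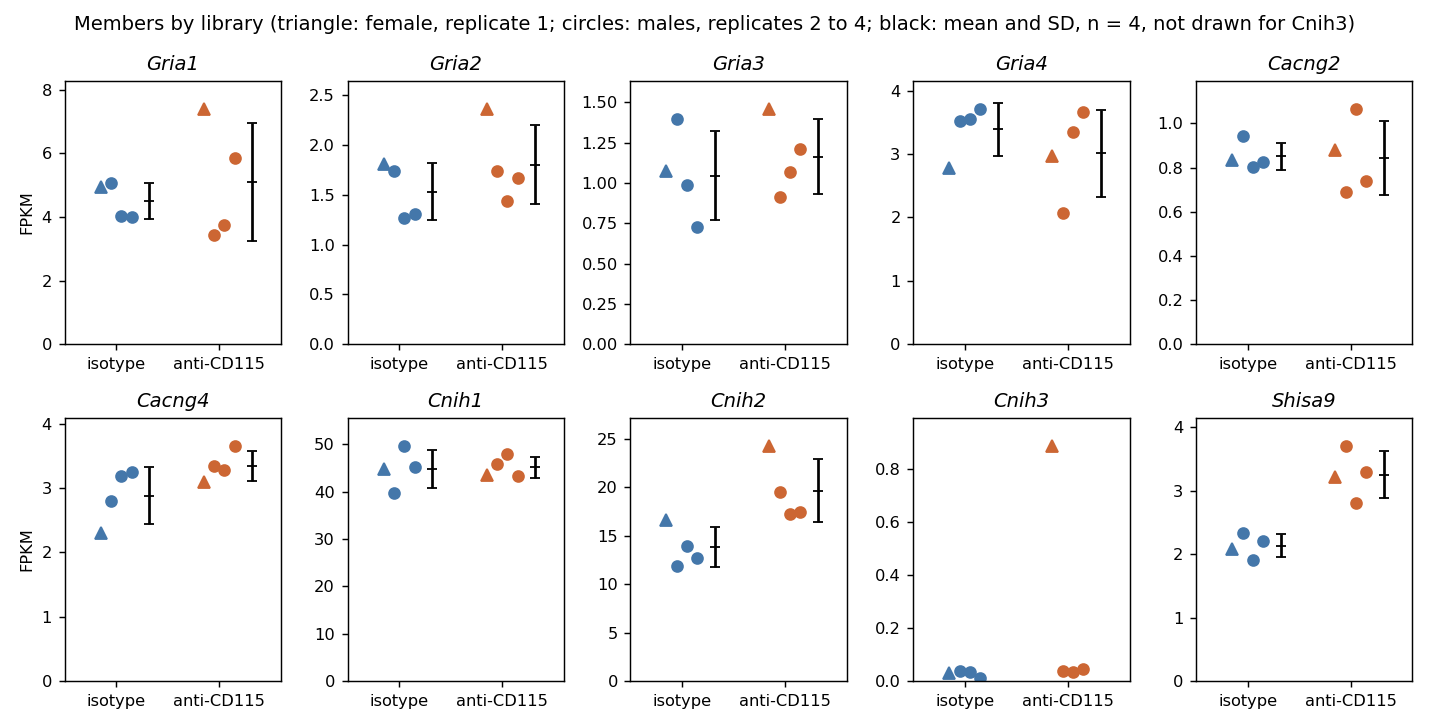
FPKM of each member in each of the 8 libraries (blue, isotype control; orange, anti-CD115; triangle, the female replicate 1; circles, the male replicates 2 to 4), with a black mark and bar for mean and SD (n = 4), not drawn for Cnih3. Treated libraries lie above all controls for Cnih2 and Shisa9, and the highest value of Gria1, Gria2, Gria3, Cnih2 and Cnih3 is the treated female.

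The pore subunits did not separate by treatment. Gria1 (ENSMUSG00000020524, chr11:57011387-57330244, plus strand), which encodes GluA1, was at 4.94, 5.06, 4.02 and 4.00 FPKM in isotype controls 1 to 4 and at 7.39, 3.44, 3.73 and 5.86 FPKM in anti-CD115 replicates 1 to 4. Treated libraries lay on both sides of the controls, with the treated female highest of the 8 and a treated male lowest. The difference, anti-CD115 minus isotype control with sex in the model, was 0.13 on the log2 scale (SE 0.18) with all libraries and -0.014 (SE 0.19) without anti-CD115 replicate 1.

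Gria2 (ENSMUSG00000033981, chr3:80681450-80802835, minus strand), which encodes GluA2, was at 1.80, 1.74, 1.26 and 1.31 FPKM in controls and at 2.36, 1.74, 1.43 and 1.67 FPKM in treated glands. The treated female was again highest, and the 3 treated males lay within the range of the controls. This gave a log2 difference of 0.22 (SE 0.12), and 0.16 (SE 0.14) without the treated female. Gria3 (ENSMUSG00000001986, chrX:41400854-41678601, plus strand), the GluA3 gene, was at 1.07, 1.40, 0.984 and 0.726 FPKM in controls and at 1.46, 0.913, 1.07 and 1.21 FPKM in treated glands. Its groups overlapped almost fully, apart from the treated female at the top. Its log2 difference was 0.13 (SE 0.19), and 0.033 (SE 0.23) without that library.

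Gria4 (ENSMUSG00000025892, chr9:4417896-4796234, minus strand), the GluA4 gene, was at 2.77, 3.52, 3.56 and 3.71 FPKM in controls and at 2.97, 2.07, 3.35 and 3.66 FPKM after anti-CD115. It was the only pore subunit for which the treated female was not the highest library; both females lay below most males, and a treated male was lowest. The log2 difference was -0.17 (SE 0.16), and -0.25 (SE 0.19) without the treated female.

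Summed over the pore subunits, FPKM was 10.6, 11.7, 9.83 and 9.74 in controls and 14.2, 8.16, 9.58 and 12.4 in treated glands. The treated glands thus spanned a wider range than the controls and enclosed it (10.5 ± 0.919 against 11.1 ± 2.71, SD, n = 4 each). Gria1 made up the largest share in every library, from 38.9% to 52.1%, and Gria4 came next, on the deposited lengths, with 21.0% to 38.1%. Gria2 held 12.8% to 21.3% and Gria3 7.45% to 11.9%. Mean shares in controls and treated glands were 43.0% ± 2.68 and 45.1% ± 5.79 for Gria1, 14.5% ± 1.87 and 16.6% ± 3.39 for Gria2, 9.88% ± 1.84 and 10.6% ± 0.688 for Gria3, and 32.6% ± 5.50 and 27.7% ± 5.97 for Gria4. Each of these differences was within the spread of the libraries. The treated female had the highest share of Gria1 and the lowest share of Gria4. Gria2 has a deposited length of 15548 bases against 10371 bases for its transcript with the longest open reading frame. With the lengths of such transcripts the mean shares over 8 libraries became 38.2% Gria1, 18.5% Gria2, 15.4% Gria3 and 27.8% Gria4. On those lengths Gria2 exceeded Gria4 in anti-CD115 replicates 1 (3.53 against 3.44 FPKM) and 2 (2.61 against 2.40 FPKM), and Gria3 exceeded Gria2 in isotype control replicate 2 (2.66 against 2.61 FPKM).

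**Figure D3:**
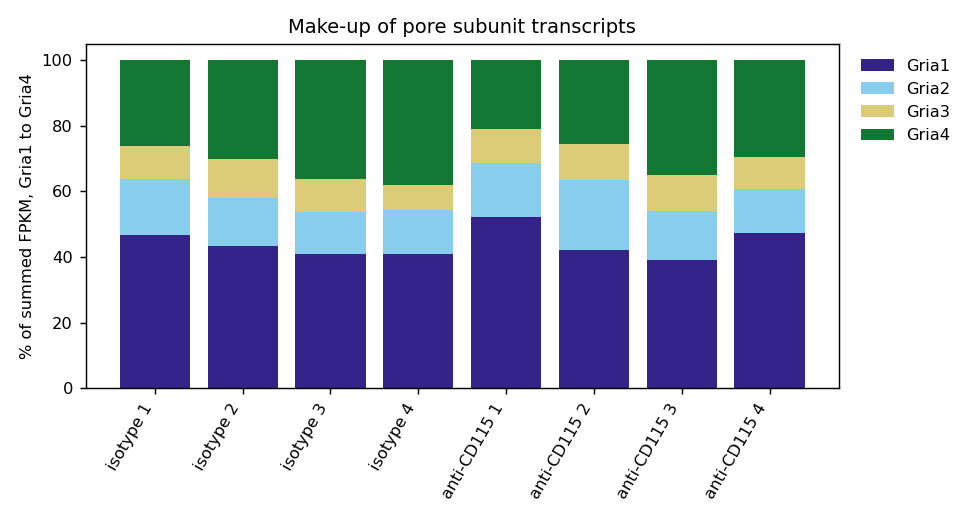
Share of each pore subunit gene in the summed FPKM of Gria1 to Gria4, in percent, with 1 stacked bar per library, on the deposited gene lengths. Gria1 is the largest part of every bar (38.9% to 52.1%) and Gria3 the smallest (7.45% to 11.9%).

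The TARPs, transmembrane proteins that anchor AMPA receptors at synapses, differed little. Cacng2 (ENSMUSG00000019146, chr15:77991748-78120028, minus strand), which encodes stargazin, was at 0.833, 0.942, 0.804 and 0.826 FPKM in controls and at 0.880, 0.691, 1.06 and 0.738 FPKM in treated glands. Treated libraries held both the highest and the lowest values. Its log2 difference was -0.015 (SE 0.17), and -0.043 (SE 0.21) without the treated female. Cacng4 (ENSMUSG00000020723, chr11:107732357-107794557, minus strand), which encodes TARP gamma-4, was at 2.30, 2.80, 3.19 and 3.26 FPKM in controls and at 3.10, 3.34, 3.29 and 3.66 FPKM after anti-CD115. The 3 treated males lay above all controls, while the treated female fell between them. Cacng4 had a log2 difference of 0.22 (SE 0.11), and 0.15 (SE 0.13) without the treated female.

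Among the cornichons, only Cnih2 separated the groups. Cnih2 (ENSMUSG00000024873, chr19:5092871-5098418, minus strand), the cornichon that slows AMPA receptor deactivation in hippocampal neurons, was at 16.6, 11.9, 13.97 and 12.7 FPKM in controls and at 24.3, 19.6, 17.2 and 17.5 FPKM in treated glands. Every treated library lay above every control, though the lowest treated library stood close above the control female. Mean FPKM was 13.8 ± 2.07 in controls and 19.6 ± 3.26 in treated glands (SD, n = 4 each). The log2 difference was 0.50 (SE 0.09), or 1.42-fold, and 0.49 (SE 0.12), or 1.40-fold, without the treated female. The males alone gave the same separation, and the treated female was the highest of the 8.

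Cnih1 (ENSMUSG00000015759, chr14:46775567-46788411, minus strand), a cornichon present in most tissues, was at 44.7, 39.7, 49.6 and 45.2 FPKM in controls and at 43.4, 45.8, 47.9 and 43.4 FPKM in treated glands. The treated glands fell inside the range of the controls, and the log2 difference was 0.0041 (SE 0.08). Cnih3 (ENSMUSG00000026514, chr1:181352628-181460641, plus strand), a cornichon of forebrain neurons, had 2, 3, 3 and 1 counted reads in controls and 70, 3, 3 and 3 reads in treated glands. All but the treated female were at or under 3 reads, and that library was also the one with forebrain genes. Cnih3 did not pass the filter on low counts and was not fitted.

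Shisa9 (ENSMUSG00000022494, chr16:11984113-12270902, plus strand), which encodes the auxiliary subunit CKAMP44, was at 2.09, 2.34, 1.91 and 2.20 FPKM in controls and at 3.22, 3.71, 2.81 and 3.29 FPKM after anti-CD115. Again every treated library lay above every control, and here the treated female was in the middle of its group. Mean FPKM was 2.13 ± 0.183 in controls and 3.25 ± 0.369 in treated glands. The log2 difference was 0.60 (SE 0.12), or 1.52-fold, and it was 0.60 (SE 0.15) without the treated female.

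**Figure D4:**
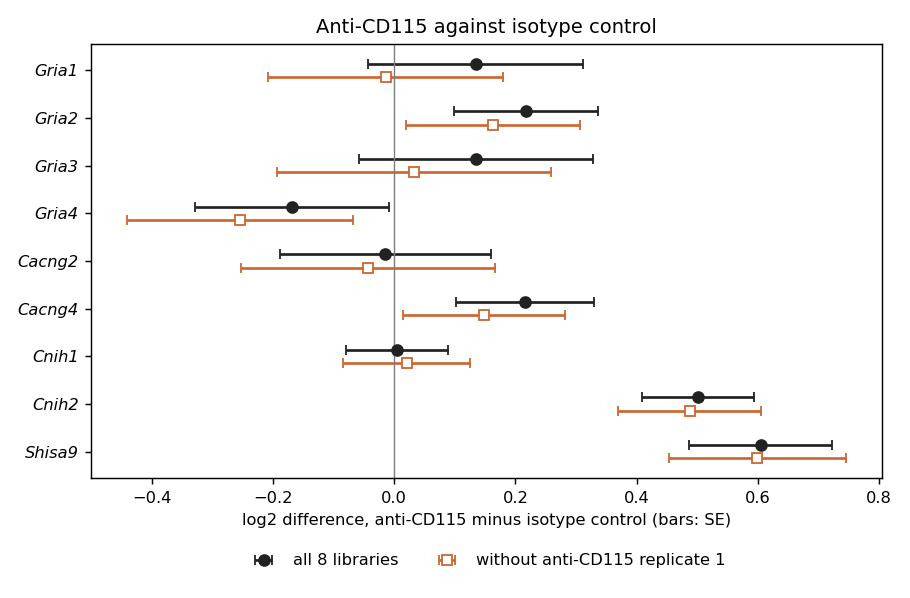
Fitted log2 difference of each fitted member, anti-CD115 minus isotype control, with SE as bars, for all 8 libraries (filled circles) and without anti-CD115 replicate 1 (open squares). Cnih2 and Shisa9 lie at 0.49 to 0.60 in both fits, and the other 7 members lie between -0.25 and 0.22.

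Of the 10 members, 9 were fitted, and Cnih2 and Shisa9 were the 2 that passed an adjusted p below 0.05 upwards in the edgeR fit over all genes, in which 7 of 17723 genes (0.0395%) did so. None of the 9 fell, against 0.829% of all genes. Without anti-CD115 replicate 1, 0 of the 9 passed in either direction in edgeR, with 120 of 17941 genes called (0.669%, and 0.0167% upwards). Both differences were then about as large as before, in a fit on 7 libraries. The control female is the only female in it and is taken up by the sex term. Its treatment difference thus sets 3 treated males against 3 control males. The fits on males alone and without isotype control replicate 1 compare the same males. All of these fits gave a log2 difference of 0.49 for Cnih2 and 0.60 for Shisa9. Over 19 alternative settings, the fit without the treated female included, Cnih2 passed in 8 and Shisa9 in 6. Each passed in 1 of the 8 fits that left out 1 library. The settings share libraries, and the members were chosen with this comparison in view. These tallies only show that the calls depended on the fit, and nothing more is read from them. In FPKM, all treated libraries lay above all controls for the same 2 members and for 466 of 17723 genes (2.63%), and no member had all treated libraries below all controls (3.24% of genes). Without the treated female this also held for Cacng4, and for 772 of 17723 genes (4.36%) in total. Over the fitted members the median log2 difference was 0.13, and 0.033 without the treated female, against 0.0041 and 0.0071 over all genes fitted. Where 50 genes were given a 1.5-fold change in simulated counts, 48% of them were recovered. Those genes were drawn at random, so this share does not tell what could be called for a given member, whose SE may be smaller or larger.

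Neighbouring genes could add reads to some members if strand was not used in counting, which is not stated. Cnih2 ends 9 bases inside Yif1a, a Golgi protein gene on the opposite strand, which had 13363 reads in all against 4747 for Cnih2. The log2 difference of Yif1a between treatments was -0.01 (edgeR adjusted p = 0.986). The part of overlapping genes in the members' counts was not tested. The antisense genes within Cnih1, Cacng2 and Cacng4 had 98, 77 and 56 reads in all, against 16921, 1086 and 2579 for the members. No gene of 3 or more reads overlapped Shisa9 or a Gria gene.

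Between females and males, no member differed past the threshold, and the larger differences rested in part on the treated female. With all libraries, 2 females were compared with 6 males in the same edgeR fit, and 0 of the 9 fitted members had an adjusted p below 0.05, against 87 of 17723 genes (0.491%, and 0.276% higher in females). The members with an unadjusted p below 0.05 numbered 3 (Gria1, Gria2 and Cnih2), each higher in females. Of all genes, 1611 of 17723 had such a p in this fit, in either direction. DESeq2 and limma-voom also called 0 of the 9.

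Cnih2 was at 16.6 and 24.3 FPKM in the females of the control and treated groups, each the highest of its group, with a log2 difference of 0.40 (SE 0.10, adjusted p = 0.182 in edgeR), and 0.37 (adjusted p = 0.795) without the treated female. Gria2 was also highest in the female within both groups, at 1.80 and 2.36 FPKM, with a log2 difference of 0.44 (SE 0.13, adjusted p = 0.260). Without the treated female its log2 difference was 0.33 (SE 0.20). Gria1 had a log2 difference of 0.49 (SE 0.20, adjusted p = 0.475), which was 0.18 (SE 0.27), below its SE, without the treated female. Gria1 passed the threshold when genes were not filtered on low counts (adjusted p = 0.0482), the only one of 17 alternative settings in which it did.

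Among the members without a low unadjusted p, Cacng4 was lowest in the female of each group, at 2.30 and 3.10 FPKM, with a log2 difference of -0.28 (SE 0.13, adjusted p = 0.596 in edgeR). Without the treated female it was -0.42 (SE 0.20), in size the largest of any member in that fit. For Gria4 the log2 difference was -0.20 (SE 0.19, adjusted p = 0.858), and -0.38 (SE 0.27) without the treated female. For Gria3 it was 0.26 (SE 0.22, adjusted p = 0.824), and 0.045 (SE 0.32) without that library. Shisa9 at -0.03, Cnih1 at -0.04 and Cacng2 at 0.02 were close to 0. Fits without the treated female hold 1 female and have treatment in the model, so the sex difference sets the control female against the 3 control males. Their SE and p take the spread from the males alone and assume that females vary alike. In that fit 0 of the 9 members had an unadjusted p below 0.05, and 53 of 17941 genes (0.295%) passed the adjusted one.

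**Figure D5:**
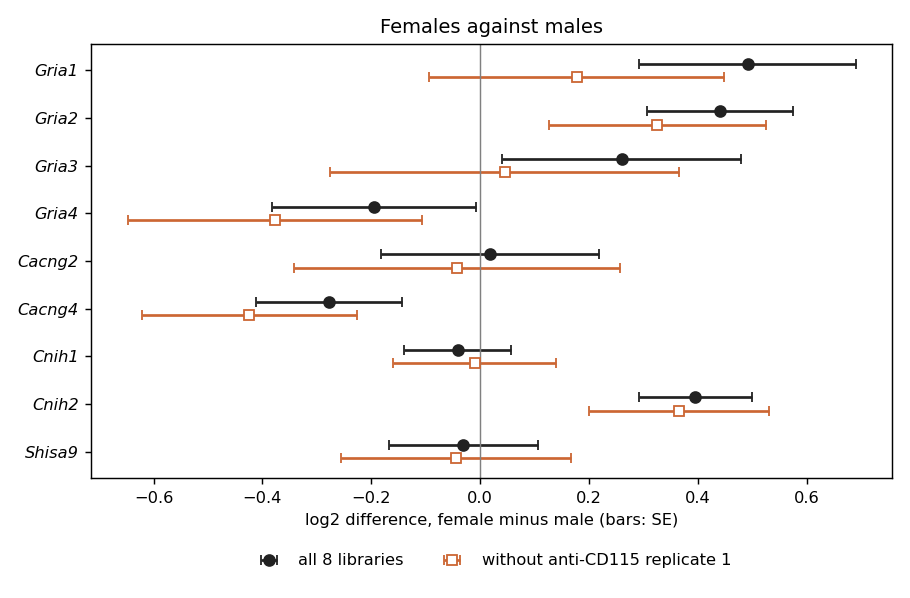
Fitted log2 difference of each fitted member, female minus male, with SE as bars, for all 8 libraries (filled circles) and without anti-CD115 replicate 1 (open squares). Gria1 falls from 0.49 to 0.18 when that library is left out, and Cnih2 stays near its value at 0.40 and 0.37.

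The treatment difference of a member was not shown to depend on sex. For the sex by treatment term 0 of the 9 members passed in edgeR or in DESeq2, 0 had an unadjusted p below 0.05, and 7 of 17723 genes (0.0395%) were called. The member with the largest estimate was Gria1, at 0.60 on the log2 scale (SE 0.38, adjusted p = 1.00). This term sets the difference between the treated and the control female against the difference between treated and control males. Each treatment had 1 female, and females are assumed to vary as males do. Among the genes called were Camk2a (log2 3.67), Ddn (4.80) and Nrgn (3.01), each of which is in the list of forebrain genes. That list was set up after the treated female had been seen. A gene high in that library alone raises this term, so the overlap is no separate evidence.

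Genes related to AMPA receptors or to glutamate signalling, with a pair of calcium channel gamma subunits that are no TARPs, were read from 6 lists of 83 genes in all, chosen with earlier results known. In the treatment comparison 0 of them passed in edgeR, where 0.869% of all genes were called in either direction, while DESeq2 called 3 (Nptx1, Frrs1l and Neto2) and limma-voom 0. Over all genes, 1833 of 17723 had an unadjusted p below 0.05 in the edgeR treatment fit, which stands beside the count given for each list below. Of 23 other auxiliary and associated genes, 21 were fitted, 12 had a log2 difference above 0, the median was 0.03 and 5 had an unadjusted p below 0.05. The 3 most abundant were Nptxr, a receptor for neuronal pentraxins, at -0.07, Olfm1, an AMPA receptor-associated secreted protein, at -0.08, and the TARP Cacng7 at -0.13 (edgeR adjusted p = 0.856, 0.849 and 0.653). The 5 with a low unadjusted p were all above 0 on the log2 scale: the pentraxins Nptx1 at 0.56 and Nptx2 at 0.42, the Shisa9 relative Shisa7 at 0.51, the synaptic adhesion gene Lrrtm4 at 0.41 and the olfactomedin Olfm2 at 0.30 (edgeR adjusted p = 0.222, 0.472, 0.379, 0.465 and 0.373). Nptx1 was at 3.23, 4.51, 4.83 and 3.68 FPKM in controls and at 7.67, 5.81, 5.44 and 5.36 FPKM in treated glands. Its treated libraries lay above all controls, as did those of Lrrtm4 and Olfm2, and the treated female was highest. DESeq2 called Nptx1 (adjusted p = 0.0333), and its log2 difference was 0.35 without that library.

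Of 22 assembly, trafficking, scaffold and editing genes, all were fitted, with a median of 0.08 and 2 at an unadjusted p below 0.05. The most abundant were the serine hydrolase Abhd12 at -0.10, the vesicle fusion ATPase Nsf at 0.15 and Abhd6, an AMPA receptor-binding hydrolase, at 0.08 (edgeR adjusted p = 0.709, 0.679 and 0.772). Adarb1, the enzyme that edits the glutamine/arginine site, was at 0.07 (adjusted p = 0.826). Frrs1l, which helps assemble AMPA receptors in the endoplasmic reticulum, was at 0.594, 0.572, 0.346 and 0.454 FPKM in controls and at 1.72, 0.595, 0.839 and 0.720 FPKM in treated glands. Its treated libraries lay above all controls, though one of them by very little, and on the CPM scale the groups overlapped. The treated female stood far above the rest. The log2 difference was 0.88 (edgeR adjusted p = 0.166; DESeq2 adjusted p = 0.0153), and 0.65 without that library.

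Of 16 kainate, NMDA and delta receptor genes, 15 were fitted, 13 lay above 0, the median was 0.17 and 1 had an unadjusted p below 0.05. The kainate receptor genes Grik3 and Grik5 and the NMDA receptor gene Grin1 were the most abundant and were at 0.08, 0.02 and 0.04 on the log2 scale (edgeR adjusted p = 0.888, 0.972 and 0.914). The gene with the low p was Neto2, an auxiliary subunit of kainate receptors, at 2.65, 3.20, 2.51 and 3.01 FPKM in controls and at 3.81, 5.13, 4.20 and 3.67 FPKM in treated glands. Its groups did not overlap, and the treated female was not the highest. Neto2 had a log2 difference of 0.56 (edgeR adjusted p = 0.0757; DESeq2 adjusted p = 0.00374), and 0.57 without the treated female.

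Of 8 metabotropic receptor genes, 5 were fitted with a median of 0.33 and 0 at an unadjusted p below 0.05. Grm2, Grm7 and Grm5 had the highest levels, each below 1 FPKM, and were at 0.79, -0.05 and 0.19 (edgeR adjusted p = 0.504, 0.975 and 0.798). Of 12 glutamate transport and metabolism genes, 11 were fitted with a median of 0.17 and 1 at an unadjusted p below 0.05. Glul, which makes glutamine from glutamate, was at 0.08, the amino acid carrier Slc1a4 at 0.17 and the vesicular glutamate transporter Slc17a8 at 0.18 (edgeR adjusted p = 0.798, 0.621 and 0.660). Cacng6, a calcium channel gamma subunit that is no TARP, was the fitted gene of its pair, at -0.46 (adjusted p = 0.424).

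Between sexes, 1 gene of these lists passed in edgeR. Grm5, a metabotropic glutamate receptor, was at 0.579 FPKM in the control female and 0.721 FPKM in the treated female, against 0.105, 0.128 and 0.105 FPKM in control males and 0.104, 0.165 and 0.102 FPKM in treated males. Both females lay far above all males. Grm5 was higher in females by 2.44 on the log2 scale (SE 0.21, adjusted p = 6.30e-04), and by 2.35 (adjusted p = 0.0179) without the treated female, where 1 female stands for the sex. Its call held in 17 of 17 alternative settings. Olfm3, an AMPA receptor-associated olfactomedin, was at 10.2 FPKM in the control female and between 2.38 and 3.89 FPKM in the other 7 libraries, so its difference rested on 1 library. Its log2 difference was 1.13 (edgeR adjusted p = 0.127). Without the treated female, which leaves that control female as the only female, it was 1.77 and passed (edgeR adjusted p = 0.00555).

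How the members varied together is given as a description over 8 libraries of 1 tissue that share treatment and sex. Pearson r of log2 CPM was 0.73 between Gria1 and Gria2, and 0.43 without the treated female. Between Gria1 and Gria3 it was 0.76, and 0.65 without it. Cnih2 and Shisa9 had r = 0.72, and 0.71 without it. Both genes were higher in treated glands, which enters this r. Other pairs ran in opposite directions. Gria4 had r = -0.56 with Cnih2, -0.52 with Shisa9 and -0.45 with Gria2, and Cnih1 had r = -0.56 with Gria1, -0.59 with Gria2 and -0.55 with Gria3. Without the treated female these values lay between -0.67 and -0.51.

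The genes most like each member were sought among 15477 genes with a mean of at least 1 CPM. With 8 libraries and so many candidates, high r values can arise by chance, so the genes are named as a description with no p-value. For Gria2 the closest was Mef2c (r = 0.991 over 8 libraries, 0.985 over 7), with Arf3 and Celf5 next. For Gria1 it was Slc25a27 (0.974; 0.947 over 7), then Fam234b and Hc, and for Gria3 it was Sox1 (0.958; 0.967 over 7), then Plppr1 and Scn7a. Shisa9 followed 6530402F18Rik (0.987; 0.985 over 7), then Trappc10 and Gprasp2. For the others the closest were Gm42047, Lgals8 and Clasp2 for Gria4 (0.974 to 0.969), Rragb, Tmem94 and Tnk2 for Cacng2 (0.962 to 0.918), and Kctd9, Gfm2 and Wdr60 for Cacng4 (0.974 to 0.962). Cnih1 was closest to Rnpepl1, Arhgef1 and Arfgap2 (0.970 to 0.951). Cnih2 was closest to Panx1, Gm10608 and Gpn1 (0.976 to 0.958), but without the treated female its closest genes were Parp1, Cbx2 and Tcof1 (0.987 to 0.980). The closest genes of Cnih1 likewise became Alkbh2, Rnf8 and Rnpc3 (0.975 to 0.971). The first gene also became Hc for Gria1, Robo1 for Gria2, Stard9 for Gria3, Rxrg for Gria4 and Gfm2 for Cacng4, and it was unchanged for Cacng2 and Shisa9.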

How the data were processed

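The submitters' processing notes name featureCounts 1.5.0-p3, StringTie 1.3.3b and HISAT2 2.0.5, and the build GRCm38; settings, including strand, are not given in the sources used here, although the library kit marks strand per the labels. The deposited count table holds whole-number read counts per gene without normalisation, and the deposited FPKM table divides them by gene length and library size. Counts of all genes were fitted in R 4.3.3 with edgeR 4.0.16 (TMM, filterByExpr on treatment, quasi-likelihood test, terms for treatment and sex, Benjamini-Hochberg threshold 0.05), with limma 3.58.1 and DESeq2 1.42.0 as alternatives. SE is that of the fitted log2 difference. Simulated counts held 50 genes changed at each of 1.25-, 1.5-, 2- and 4-fold. The treatment test, on 17556 genes, recovered 8%, 48%, 86% and 98% of them, with 15 false calls. These false calls were a larger share of its calls than the threshold of 0.05 allows, in a single simulated set. The sex test, on 17555 genes, recovered 0%, 28%, 78% and 96%, with 4 false calls.

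Members and lists were chosen with earlier results of these data known. The forebrain list, the overlapping genes and the fits on transcript length were added after the data were seen. Genes outside the members were named where they passed the threshold for treatment or sex, where they were among the 3 of highest mean FPKM in a list, or as the 3 most alike; Frrs1l, Neto2, Nptx1, Nptx2, Shisa7, Lrrtm4, Olfm2, Olfm3, Adarb1 and the forebrain and overlapping genes were named after their values were seen. Likeness used log2 CPM with a prior count of 2. Sequence was read from GENCODE M21 transcripts, whose coding part was taken as the longest open reading frame. Coordinates on GRCm38 were worked out from the exons of these transcripts. No 2 libraries of a group agreed within sampling noise (chi-square per degree of freedom at least 14.6).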

Additional observations from a re-analysis of the deposited data

Results flagged for a closer look

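Cnih3 in anti-CD115 replicate 1 stood far from the rest of its group. Its gap to the nearest treated library, divided by the range of the group, was 0.984, above Dixon's 95% critical value for 4 samples. It had 70 reads there and 3 reads in each of the other treated libraries. Of 20 groups tested (10 members in 2 treatments), this was the only one past the critical value, and chance gives about 1 such group in 20. Forebrain genes were high in the same library, and their part in the Cnih3 reads was not tested.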

How the results depend on the processing

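The treatment comparison called 154 genes. DESeq2 called 268 (52 higher, 216 lower), the fit without a filter on low counts 487 (134 higher, 353 lower), limma on log2(FPKM + 1) without a filter 67, and fits leaving out 1 library 89 to 120. In the related lists DESeq2 called 3 genes and the fit without a filter 6. The sex comparison called 87 genes, against 336 with DESeq2, 601 without a filter, 45 and 43 with limma on log2(FPKM + 0.1) and log2(FPKM + 1), 32 on the latter without a filter, and 46 to 92 when 1 library was left out. The interaction called 7 genes, 42 with DESeq2 and 168 without a filter. A replicate block in place of sex called 118 genes for treatment and 0 in the related lists; the shared numbers were not shown to pair the mice, since deviations of same-numbered libraries correlated at 0.417, -0.096, 0.065 and 0.306.

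For treatment, the log2 difference lay between 0.46 and 0.55 for Cnih2 and between 0.44 and 0.68 for Shisa9 over 19 alternatives. Differences near 0 changed sign: leaving out 1 library gave Gria1 -0.027 to 0.26, Cacng2 -0.17 to 0.076 and Cnih1 -0.057 to 0.061 for treatment, and Cacng2 -0.043 to 0.12 and Shisa9 -0.079 to 0.018 for sex. Upper-quartile scaling gave Cnih1 -0.0056 and males alone gave Gria1 -0.013. The cause was not tested. With 4 mice a group and 1 female in each, differences under 1.5-fold were mostly below what the test could call.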
